A study of Mus musculus with 12 samples.

Results

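The 48 genes described here copy DNA in S phase or decide when copying starts. They were taken from a fixed list of gene names, out of 25514 genes counted in the series, and each was represented by its transcript with the highest total count. All 48 passed the filter on low counts and were among the 12971 genes tested. The rule uses gene names alone and no measured value, although the list was drawn up with earlier results of these data known.

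RNA-seq was performed on conditionally immortalized proximal tubule (PT) cells of male mice that carry the Immorto transgene, H2ts6, with 3 libraries in each of 4 groups. TβRIIflox/flox PT cells (H2ts6;Tgfbr2fl/fl) hold a floxed gene for the type II TGF-β receptor, and TβRII-/- PT cells (H2ts6;Tgfbr2-/-) were made from them in culture by adenoviral Cre. Each genotype was left in normal culture medium or kept for 24 h in serum-free medium with H2O2, so that the oxidant and the loss of serum cannot be told apart. The methods of the study also describe 24 h of serum starvation before H2O2 was added, so the time without serum may have been longer. The sample labels give the H2O2 dose as 200 mM and the methods of the study give the same figure in micromolar, so the dose is not settled here. All groups were grown at 33 °C with interferon gamma and 2.5% serum and moved to 37 °C 5 days earlier, and all carry the Immorto T antigen, which is active at low temperature and then binds the retinoblastoma protein. Each genotype was 1 cell line, nothing in the labels says that the 3 libraries of a group came from separate cultures, and the loss of the receptor cannot be told apart from any other difference between the lines. The p-values then measure the spread between these libraries, which may be technical.

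Totals over genes lay between 15870155 and 20857618 counts per library. Tgfbr2, the targeted gene, kept between 6485 and 9299 raw counts in the 6 TβRII-/- libraries and had between 7032 and 13474 in the 6 TβRIIflox/flox libraries, so its transcript total checks the deletion only in part. Its mean normalized counts were 8393 in untreated TβRIIflox/flox and 6605 in untreated TβRII-/- cells. With H2O2 they were 13633 and 7216, and the normalized counts of the genotypes did not overlap in either medium. Of 16 listed markers of the proximal tubule, 8 had a mean under 10 normalized counts over the 12 libraries, among them Slc34a1, Hnf4a and Slc22a6. Others were abundant, with means in untreated TβRIIflox/flox cells of 17280 for Lrp2, 10386 for Mme, 7103 for Aqp1 and 1488 for Slc4a4. All 8 listed kidney epithelium genes passed the filter, but Cdh1 and Epcam were near 0 in the TβRIIflox/flox line. Their means were 1.80 and 0.371 in untreated TβRIIflox/flox and 1111 and 664 in untreated TβRII-/- cells.

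DNA replication starts when the origin recognition complex, Cdc6 and Cdt1 load the MCM helicase onto origins in G1. At the start of S phase the kinases Cdk2 with cyclin E and Cdc7 with Dbf4 switch the helicase on together with Cdc45 and the GINS complex, primase and the polymerases then copy both strands, and Pcna, a ring loaded by the Rfc proteins, holds the polymerases on the template. Most of these genes are transcribed in a burst late in G1 by E2F factors, which are held back by the retinoblastoma protein. The proximal tubule divides little in the healthy kidney and enters the cell cycle after injury. In bulk RNA, a larger share of cells in S phase and more RNA per cell cannot be told apart.

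Promoters of 4 members are shown because they carry an E2F-type motif, the letters that E2F factors are known to bind. The stretches run from 170 bases before to 30 bases after the RefSeq start on GRCm38.p6, in the direction of transcription, and capitals mark the E2F-type motif TTTNNCGC or its reverse complement. E2f2 (chr4:136172104-136172303, plus strand) and Rfc3 (chr5:151651179-151651378, minus strand) were the members with the largest difference between genotypes, Mcm6 (chr1:128359676-128359875, minus strand) had the most motifs, 3, with the first pair overlapping, and Cdc6 (chr11:98907981-98908180, plus strand) was lower in TβRII-/- PT cells.
E2f2: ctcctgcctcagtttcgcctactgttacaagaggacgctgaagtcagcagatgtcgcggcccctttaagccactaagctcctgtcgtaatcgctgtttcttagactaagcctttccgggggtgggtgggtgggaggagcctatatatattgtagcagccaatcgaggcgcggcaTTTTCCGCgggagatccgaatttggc
Rfc3: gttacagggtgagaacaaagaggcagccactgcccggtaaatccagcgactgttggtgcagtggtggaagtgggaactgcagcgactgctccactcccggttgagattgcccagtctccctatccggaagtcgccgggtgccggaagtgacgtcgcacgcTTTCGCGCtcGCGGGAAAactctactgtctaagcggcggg
Mcm6: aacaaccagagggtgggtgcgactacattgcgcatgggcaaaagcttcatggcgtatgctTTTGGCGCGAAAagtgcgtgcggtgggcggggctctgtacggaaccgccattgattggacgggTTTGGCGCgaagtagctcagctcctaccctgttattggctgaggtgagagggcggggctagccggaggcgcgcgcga
Cdc6: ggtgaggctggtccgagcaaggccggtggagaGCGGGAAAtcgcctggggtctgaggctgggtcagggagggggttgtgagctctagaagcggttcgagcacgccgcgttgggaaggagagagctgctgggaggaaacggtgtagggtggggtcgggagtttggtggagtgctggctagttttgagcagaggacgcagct

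RefSeq promoters of 300 bases were at hand for 39 of the 48 genes. The E2F-type motif, searched on both strands, occurred in 17 of them (43.6%), against 5.93% of 27025 genes with a promoter in the same table, chromosome 18 left out. CCAAT occurred in 61.5% of the members and 41.1% of all genes, and TTTGAA, the letters of the CHR element of mitotic genes, in 20.5% and 20.2%. Of 26 G2/M genes with a promoter, 76.9% held TTTGAA and 7.69% the E2F-type motif. A match is a string of letters and not a bound site.

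Levels per length were set by the highest protein-coding transcript of each gene, as counts scaled to library size (CPM) per kilobase of transcript (CPM/kb). In untreated TβRIIflox/flox PT cells the helicase subunit Mcm7 stood highest at 125.9 CPM/kb ± 2.48 (SD, n = 3), followed by Chaf1b, a histone chaperone subunit, at 117.8 ± 3.89, Rrm2, the regulated subunit of ribonucleotide reductase, at 115.01 ± 6.30, Mcm2 at 113.07 ± 4.92 and Pcna at 112.3 ± 9.72. Those 4 neighbours in the order lie within the spread of each other. The transcription factor E2f2 stood lowest of the 48, at 1.90 ± 0.215 CPM/kb, below Gins1 at 6.38 ± 0.176.

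**Figure D1:**
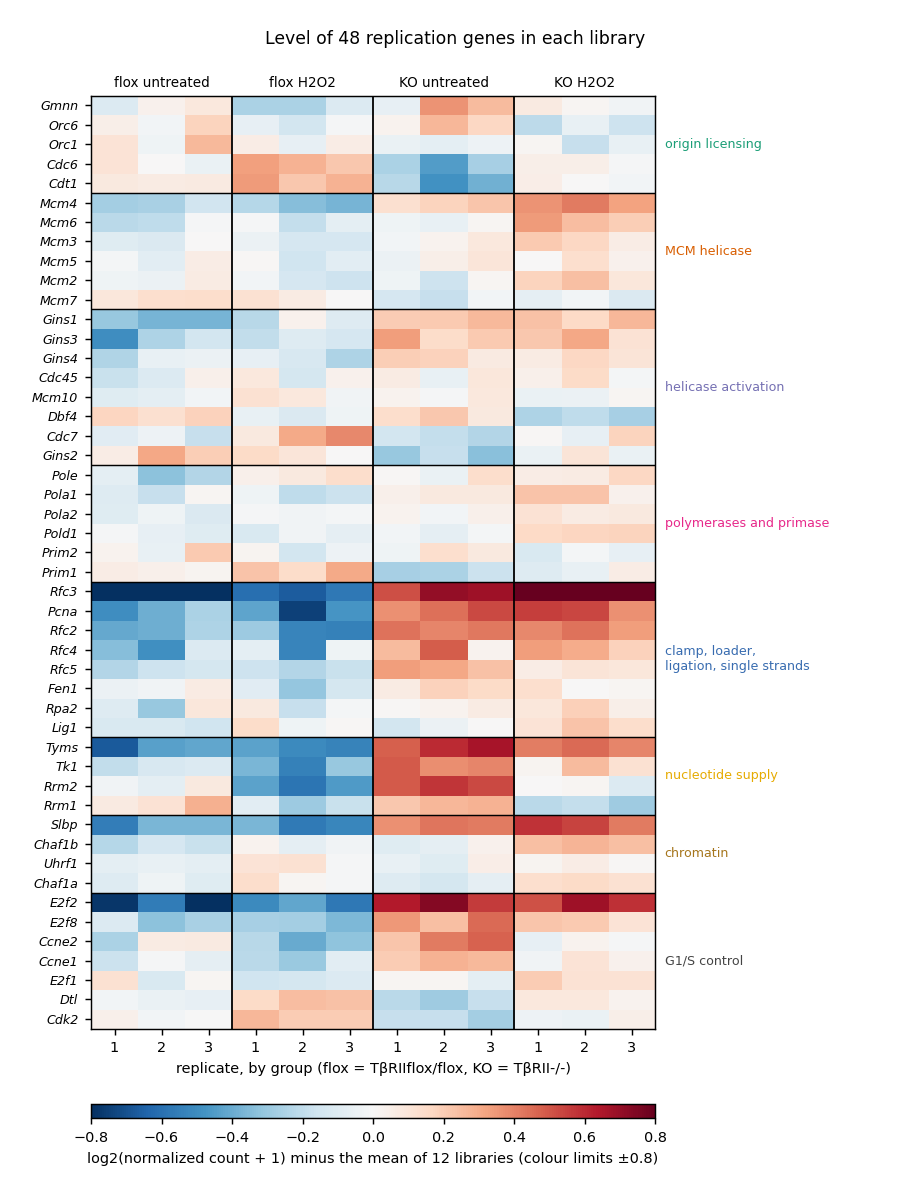
Heat map of the 48 replication genes (rows, by role and by the untreated genotype difference) in the 12 libraries (columns, 3 per group; flox, TβRIIflox/flox; KO, TβRII-/-). Colour is log2(normalized count + 1) minus the mean of the 12 libraries, with limits at 0.8 either way; Rfc3, E2f2, Tyms, Pcna and Slbp are blue in all 6 flox libraries and red in all 6 KO libraries.

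In untreated cells, 20 of the 48 replication genes were higher and 7 were lower in the TβRII-/- line (edgeR, adjusted p under 0.05, Benjamini-Hochberg over 12971 genes). Over all genes tested, 33.3% were called higher and 31.4% lower, so the share called higher was 41.7% in the list and the share called lower 14.6%. The median log2 fold change of the members was 0.11, against 0.01 for all genes. The largest rises were in the clamp loader gene Rfc3, the transcription factor E2f2 and thymidylate synthase, Tyms. Only 6 members, Rfc3, E2f2, Tyms, Slbp, Pcna and Rfc2, rose by 1.5-fold or more, and none of the 48 fell by as much.

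Among the clamp, loader and ligation genes 5 of 8 members were called higher and none lower, with a median log2 fold change of 0.52. Over all genes tested, 33.3% were called higher and 31.4% lower. Rfc3 (chr5:151642817-151651208), a subunit of the loader, had normalized counts of 349, 330 and 354 in untreated TβRIIflox/flox and 896, 1023 and 1005 in untreated TβRII-/- PT cells. With H2O2 the values were 412, 395 and 422 in TβRIIflox/flox and 1115, 1117 and 1145 in TβRII-/- cells. The genotypes did not overlap in either medium, and the untreated log2 fold change was 1.501 ± 0.07 (SE, adjusted p = 2.6e-18), a 2.83-fold difference. Pcna (chr2:132249286-132253180), the sliding clamp, had normalized counts of 2716, 2930 and 3226 in untreated TβRIIflox/flox, 4945, 5207 and 5527 in untreated TβRII-/-, 2864, 2286 and 2762 in TβRIIflox/flox with H2O2 and 5634, 5556 and 4935 in TβRII-/- with H2O2. All 6 TβRII-/- libraries lay above all 6 TβRIIflox/flox libraries, with an untreated log2 fold change of 0.82 ± 0.07 (adjusted p = 2.71e-11). Pcna has the pseudogenes Pcna-ps1 and Pcna-ps2 and Tyms has Tyms-ps, and reads shared with such copies make both totals uncertain. The other loader subunits Rfc2 (log2 fold change 0.76), Rfc4 (0.57) and Rfc5 (0.47) also rose, and the flap nuclease Fen1 (0.14), the ligase Lig1 (0.07) and the single-strand binding subunit Rpa2 (0.13) did not pass the test.

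In nucleotide supply 3 of 4 members were called higher, against 33.3% of all genes tested, with a median log2 fold change of 0.55. Tyms, which makes thymidylate, had 832, 981 and 993 normalized counts in untreated TβRIIflox/flox and 1841, 2004 and 2092 in untreated TβRII-/- PT cells, and with H2O2 985, 931 and 915 against 1756, 1812 and 1736. Every TβRII-/- library lay above every TβRIIflox/flox library, and the TβRII-/- libraries with H2O2 lay below the untreated ones. The untreated log2 fold change was 1.08 ± 0.07 (adjusted p = 2e-15). Rrm2 and thymidine kinase, Tk1, rose by 0.54 and 0.56 on the log2 scale. Rrm1, the large subunit of ribonucleotide reductase, did not pass the test, with a log2 fold change of 0.09 and a 95% interval of -0.03 to 0.22.

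Among the G1/S regulators, E2f2 (chr4:136172274-136196057), an activating E2F factor, had normalized counts of 155, 180 and 145 in untreated TβRIIflox/flox and 413, 442 and 392.5 in untreated TβRII-/- PT cells. With H2O2 the values were 187, 199 and 179 against 379, 426 and 400. Every TβRII-/- library held more E2f2 than every TβRIIflox/flox library, and the untreated log2 fold change was 1.38 ± 0.10 (adjusted p = 7.19e-14). E2f8, a repressor that closes the E2F wave (0.58), and the cyclins Ccne2 (0.41) and Ccne1 (0.33) rose as well. Their partner kinase Cdk2 fell by 0.22 on the log2 scale, with 1939, 1856 and 1881 normalized counts in untreated TβRIIflox/flox and 1658, 1660 and 1562 in untreated TβRII-/- cells, and Dtl, which targets Cdt1 for destruction, fell by 0.18. E2f1 had a log2 fold change of -0.02 (95% interval -0.15 to 0.11).

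Origin licensing had no member called higher in untreated TβRII-/- PT cells, out of 5 (edgeR, also 0 at an unadjusted p under 0.05), and 2 called lower. Over all genes tested, 33.3% were called higher and 31.4% lower, and 5 genes are too few to set the role apart from these shares. Every other role had at least 1 member called higher, the MCM helicase 1 of 6, and the difference between roles was not tested. Cdt1, which brings the helicase to origins, had 1541, 1530 and 1536 normalized counts in untreated TβRIIflox/flox and 1255, 1045 and 1121 in untreated TβRII-/- PT cells. Cdc6, its partner in loading, had 809, 751 and 721 against 628, 548 and 622. Neither pair of groups overlapped, and the log2 fold changes were -0.43 ± 0.06 (adjusted p = 6.1e-07) for Cdt1 and -0.34 ± 0.07 (adjusted p = 9.02e-05) for Cdc6. Geminin, Gmnn, which blocks Cdt1, had a log2 fold change of 0.19, Orc6 of 0.09 and Orc1 of -0.17, and none of these passed the test.

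The helicase itself was less uniform. Mcm4 had 5696, 5740 and 6177 normalized counts in untreated TβRIIflox/flox and 7526, 7771 and 8017 in untreated TβRII-/- PT cells. The groups did not overlap, and the log2 fold change was 0.40 ± 0.06 (adjusted p = 7.55e-07). Mcm7 fell by 0.23 on the log2 scale, and Mcm2, Mcm3, Mcm5 and Mcm6 had log2 fold changes between -0.05 and 0.12 that did not pass the test. Of the GINS subunits, which work as a complex of 4, Gins1 rose by 0.57 (127, 121 and 122 against 181, 182 and 189 normalized counts), Gins3 by 0.52 and Gins4 by 0.26. Gins2 fell by 0.46 on the log2 scale, with 812, 966 and 895 against 632, 686 and 617 normalized counts and no overlap. The helicase activators Cdc45 (0.11), Mcm10 (0.10), Cdc7 (-0.09) and Dbf4 (-0.02) did not pass the test.

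Polymerase and chromatin genes differed little, apart from Slbp (chr5:33640055-33652574), which binds the stem-loop of histone mRNA. Slbp had 1222, 1395 and 1393 normalized counts in untreated TβRIIflox/flox and 2321, 2414 and 2394 in untreated TβRII-/- PT cells, and with H2O2 1393, 1213 and 1253 against 2682, 2617 and 2397. The genotypes were apart in both media, with an untreated log2 fold change of 0.83 ± 0.07 (adjusted p = 7.83e-13). Chaf1b rose by 0.14, Pole, a leading-strand polymerase subunit, by 0.25 and Pola1 by 0.15, while the primase Prim1 fell by 0.27, from 1308, 1291 and 1278 to 1046, 1052 and 1113 normalized counts. Pola2, Prim2, Pold1, Chaf1a and Uhrf1 lay between -0.03 and 0.10 and did not pass the test.

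Of these 27 calls, 3 did not hold in every alternative fit. Pola1 was no longer called without any 1 of TβRII-/- replicates 1, 2 and 3 or TβRIIflox/flox replicates 1 and 2 (adjusted p from 0.0565 to 0.232), and Chaf1b was no longer called without TβRII-/- replicate 2 or 3 or TβRIIflox/flox replicate 1 or 3 (from 0.0519 to 0.197). Both were also lost without the filter on low counts, with only the groups compared, with summed transcripts and with a replicate block (0.0523 for Pola1 and 0.0515 for Chaf1b), and Pola1 with DESeq2 (0.0527). Prim1 had an adjusted p of 0.0501 when its highest protein-coding transcript was used. The other 24 calls held in every alternative fit, among them the small differences of Dtl, Cdk2, Mcm7 and Pole.

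**Figure D2:**
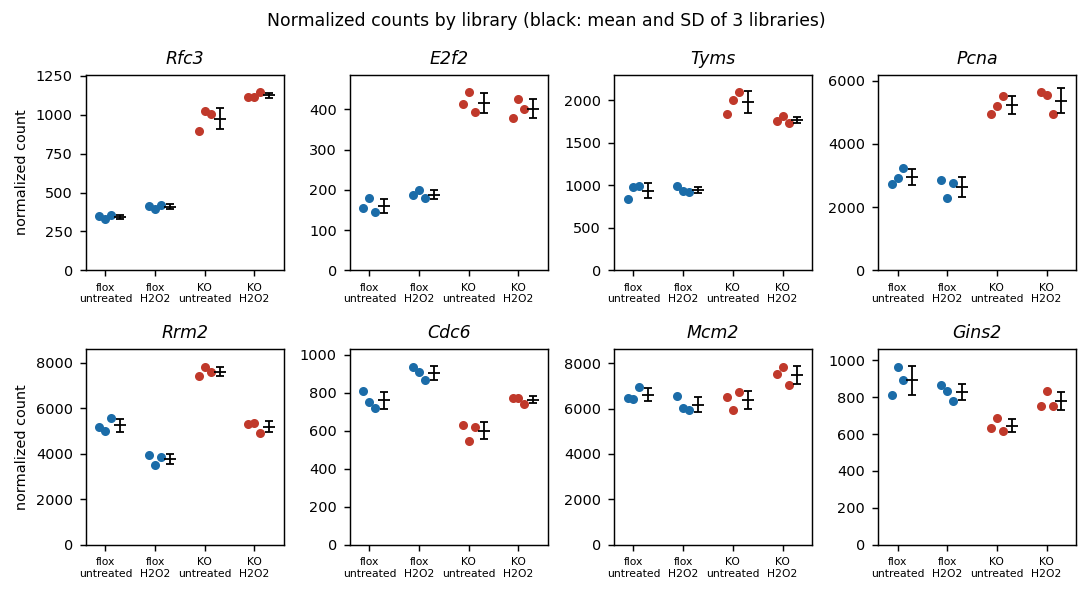
Normalized counts (y axis, from 0) of 8 replication genes in each of the 12 libraries by group (x axis; blue, flox; red, KO), with the mean and SD of 3 libraries in black. Rfc3, E2f2, Tyms and Pcna separate the genotypes in both media, Rrm2 falls with H2O2 in both genotypes, Cdc6 rises with H2O2, and Mcm2 and Gins2 have H2O2 effects of -0.10 and -0.11 in flox and of 0.23 and 0.27 in KO cells.

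With H2O2, the comparison of the same genotypes used libraries that the untreated comparison did not, and gave 26 members higher and 7 lower in TβRII-/- PT cells, against 35.1% and 31.3% of all genes tested. The median log2 fold change of the members was 0.23 (0.02 for all genes). Of the calls, 19 were higher and 5 lower in both media, none was called in opposite directions, and 12 members were called in neither medium. How many of all genes tested were called alike in both media was not counted, so no background stands beside these joint counts. Over the 48 genes the log2 fold changes without and with H2O2 had a Pearson r of 0.92; genes are not independent replicates and this is given as a description. The 5 genes lower in both media were Cdc6, Cdk2, Cdt1, Dtl and Prim1.

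Rfc3 (1.46), E2f2 (1.09), Pcna (1.03), Slbp (0.996), Tyms (0.91) and Rfc2 (0.83) again led on the log2 scale, joined by Mcm4. Mcm4 had 5871, 5443 and 5320 normalized counts in TβRIIflox/flox and 8836, 9197 and 8616 in TβRII-/- PT cells with H2O2, and the log2 fold change was 0.68 ± 0.06 (adjusted p = 1.63e-11). All 3 TβRII-/- libraries lay above the TβRIIflox/flox libraries by more than the spread within either group. Within the MCM ring, 4 of 6 subunits were called higher with H2O2, Mcm4, Mcm6 (0.35), Mcm2 (0.28) and Mcm3 (0.25), and 1 of 6 in untreated cells. Over all genes tested, 35.1% were called higher with H2O2 and 33.3% in untreated cells. The delta polymerase Pold1 (0.24), Fen1 (0.23), E2f1 (0.28) and Gmnn (0.23) were called higher and Cdc7 (-0.22) and Dbf4 (-0.17) lower with H2O2, each of them without a call in untreated cells. Gins2, Mcm7 and Pole were called in untreated cells and had log2 fold changes of -0.08, -0.13 and 0.01 with H2O2.

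Of the 33 calls with H2O2, 25 held in every alternative. Gins4 was no longer called without TβRIIflox/flox replicate 3 (adjusted p = 0.0521), Fen1 and Ccne1 without TβRIIflox/flox replicate 2 (0.0875 and 0.0608), Cdc7 without TβRII-/- replicate 2 (0.0811) and Dtl without TβRII-/- replicate 3 (0.0893). Gins1 was lost without TβRIIflox/flox replicate 1 or 3 (0.131 and 0.0612), Prim1 with the highest protein-coding transcript (0.0712), and Gmnn without any 1 of 5 libraries, TβRII-/- replicates 1 and 2 and TβRIIflox/flox replicates 1, 2 and 3 (0.0575 to 0.171), with DESeq2 (0.0728) or with summed transcripts (0.0646). Dtl was also lost without the filter on low counts (0.0647).

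**Figure D3:**
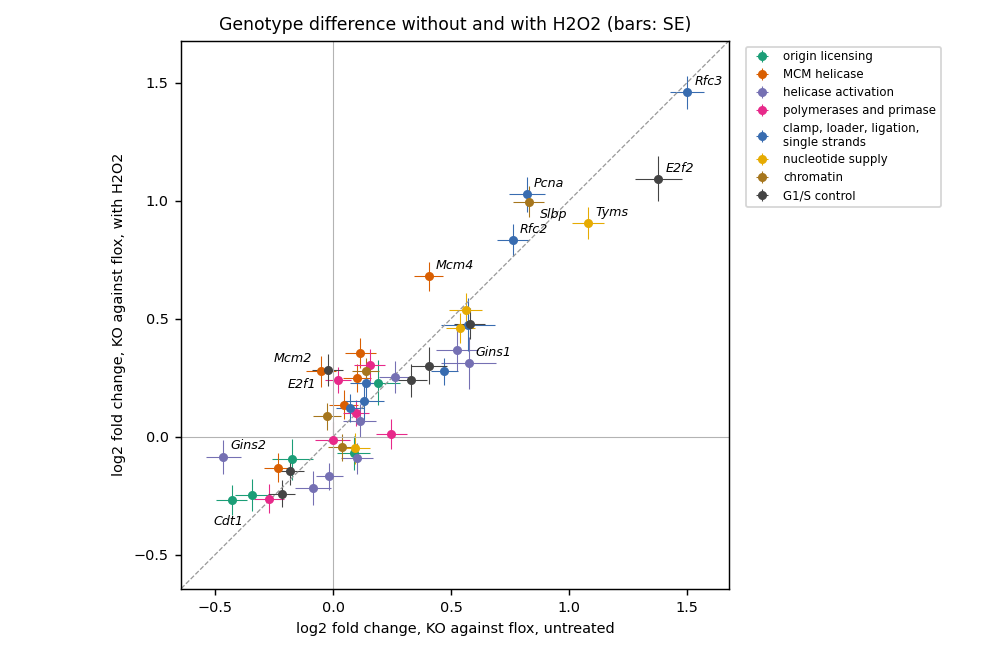
Log2 fold change of each replication gene between genotypes (KO against flox) in untreated cells (x axis) and with H2O2 (y axis), with SE bars, coloured by role; the dashed line marks equal differences. Most of the 48 points follow the line (r = 0.92), with Rfc3 at 1.501 and 1.46, and Mcm4, Mcm2, E2f1 and Gins2 lie above it.

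Genes that neighbour the members on the chromosome were compared with them. For each member the 24 nearest tested protein-coding genes were taken, 12 on each side by their start on GRCm38.p6. From the first start to the last, these windows spanned between 0.44 and 20.0 Mb, so some are not local. Their median log2 fold changes between untreated genotypes ranged from -0.49 to 1.06. These medians had a Pearson r of 0.60 and a Spearman rho of 0.46 with the members' own values over the 48 genes (r = 0.53 with H2O2), where windows of nearby members may overlap, and they are given as a description. Rfc3 lies so near the end of chromosome 5 that only 12 neighbours entered, and their median was 1.06, beside 1.501 for Rfc3 itself. The neighbours of Rfc2 had a median of 0.52, of Gins3 0.47, of Slbp 0.42, of Pcna 0.37 and of Tyms 0.35, and those of Gins2 -0.45, Cdt1 -0.28 and Mcm7 -0.49. Of the 27 called members, 19 had neighbours with a median of the same sign, and 12 of the 20 called higher had neighbours above 0.2. How often this holds over all genes tested was not counted. No background stands beside these counts, and they cannot be read as particular to the replication genes.

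Several called members did not follow their surroundings. E2f2 rose by 1.38 with a neighbour median of -0.04, E2f8 by 0.58 with -0.14, Tk1 by 0.56 with 0.06, Ccne2 by 0.41 with -0.22 and Ccne1 by 0.33 with -0.12. Cdc7 and Mcm10, in turn, had values of -0.09 and 0.10 with neighbours at 0.42 and 0.52. Chromosome 5, which holds 9 of the 48 genes, had a median log2 fold change of 0.29 over 765 genes, chromosome 2 of 0.30 and chromosome 8, with 6 members, of -0.11. DNA copy number was not measured, and the part of the chromosomal surroundings in these differences was not tested. With H2O2 against untreated cells, the neighbour medians lay between -0.13 and 0.32 in the TβRIIflox/flox line and between -0.13 and 0.19 in the TβRII-/- line.

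**Figure D4:**
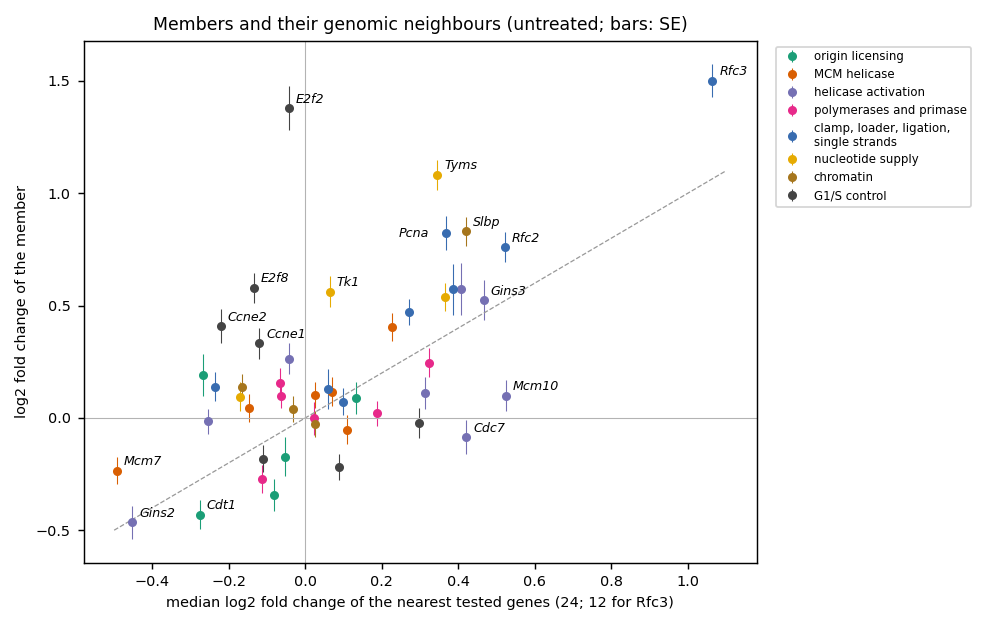
Log2 fold change of each replication gene between untreated genotypes (y axis, with SE) against the median of its nearest tested protein-coding genes on the chromosome (x axis, 24 genes, 12 for Rfc3); the dashed line marks equal values. The points rise together (r = 0.60), while E2f2, E2f8, Tk1, Ccne2 and Ccne1 lie high with neighbour medians between -0.22 and 0.06.

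With H2O2 in serum-free medium, the genes that supply deoxynucleotides fell, 3 of 4 in TβRIIflox/flox and 4 of 4 in TβRII-/- PT cells, while the loading factors Cdc6 and Cdt1 rose in both. In TβRIIflox/flox PT cells 11 members were higher and 6 lower than in untreated cells, against 21.0% and 20.5% of all genes tested, and the median log2 fold change was -0.02 (0.01 for all genes). TβRII-/- PT cells had 15 members higher and 10 lower, against 20.5% and 19.1%, and a median of 0.04 (0.02 for all genes). No member moved by 1.5-fold in either genotype. The comparisons of the 2 genotypes share no library. In them 9 members rose in both, 5 fell in both, none was called in opposite directions and 20 were called in neither. The share of all genes tested with the same call in both genotypes was likewise not counted. The Pearson r over the 48 genes was 0.70.

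Rrm2 fell most in both genotypes. Its normalized counts went from 5155, 4993 and 5550 to 3918, 3510 and 3843 in TβRIIflox/flox and from 7400, 7820 and 7584 to 5283, 5329 and 4893 in the TβRII-/- line, which gave log2 fold changes of -0.48 ± 0.06 (adjusted p = 2.77e-07) and -0.56 ± 0.06 (adjusted p = 1.32e-08). No library with H2O2 overlapped with its untreated group. Its partner Rrm1 went from 6344, 6529 and 7348 to 5691, 4932 and 5327 in TβRIIflox/flox and from 6996, 7255 and 7321 to 5178, 5274 and 4954 in TβRII-/- cells, falling by 0.34 and 0.49 on the log2 scale. Tk1 fell by 0.26 and 0.28, and Tyms by 0.16 in TβRII-/- cells, with a log2 fold change of 0.01 in TβRIIflox/flox cells that did not pass the test.

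Also lower in both genotypes were Ccne2 and Dbf4, the activating partners of Cdk2 and Cdc7. Ccne2 had 1036, 1293 and 1298 normalized counts in untreated and 1057, 932 and 987 in H2O2-treated TβRIIflox/flox cells, where 1 untreated library lay within the treated range, and 1442, 1648 and 1716 against 1178, 1261 and 1227 in TβRII-/- cells without overlap. Dbf4 went from 2400, 2337 and 2429 to 2044, 1969 and 2086 in TβRIIflox/flox and from 2357, 2476 and 2257 to 1796, 1857 and 1773 in TβRII-/- PT cells. The log2 fold changes were -0.28 and -0.39 for Ccne2 and -0.23 and -0.39 for Dbf4.

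The 9 genes that rose in both genotypes were Cdc6, Cdc7, Cdk2, Cdt1, Chaf1b, Dtl, Lig1, Prim1 and Rfc3. Cdc6 reached 938, 909 and 869 normalized counts in TβRIIflox/flox and 774, 774 and 743 in TβRII-/- PT cells with H2O2, above all untreated libraries of the same genotype. Cdt1 reached 1851, 1694 and 1773 and 1513, 1464 and 1438. The log2 fold changes of Cdc6 were 0.25 ± 0.07 (adjusted p = 0.00373) and 0.35 ± 0.07 (adjusted p = 0.000172), and those of Cdt1 0.21 and 0.37. The kinase pairs were split in both genotypes: Cdc7 rose by 0.37 and 0.23 and Cdk2 by 0.22 and 0.20, while Dbf4 and Ccne2 fell.

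Cdc7 had 951, 981 and 889 normalized counts in untreated and 1069, 1247 and 1321 in treated TβRIIflox/flox cells, and 914, 885 and 861 against 1017, 966 and 1147 in TβRII-/- cells. Cdk2 reached 2263, 2172 and 2171 in TβRIIflox/flox and 1829, 1817 and 1943 in TβRII-/- cells with H2O2, each above its untreated group. Dtl went from 1318, 1292 and 1280 to 1488, 1592 and 1575 and from 1152, 1102 and 1176 to 1418, 1421 and 1364. Chaf1b rose from 3904, 4171 and 4047 to 4675, 4353 and 4486 and from 4287, 4363 and 4690 to 5423, 5529 and 5416, log2 fold changes of 0.16 and 0.30. Pole rose in TβRIIflox/flox cells by 0.30, from 2191, 1845 and 1966 to 2381, 2451 and 2553 normalized counts, and in TβRII-/- cells had 2335, 2230 and 2556 against 2420, 2423 and 2599, which overlapped (log2 fold change 0.06).

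The members called in TβRII-/- cells and not in TβRIIflox/flox cells included Mcm6 (0.29), Mcm2 (0.23), Mcm4 (0.19), Gins2 (0.27), Chaf1a (0.24) and Pold1 (0.21), which rose, and Orc6 (-0.30), Rfc5 (-0.21), Ccne1 (-0.21) and E2f8 (-0.17), which fell. Only for Mcm2, Mcm4 and Gins2 of these did the difference between the genotypes itself pass the test.

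Calls for H2O2 held in every alternative for 11 of 17 members in TβRIIflox/flox and 17 of 25 in TβRII-/- PT cells. In TβRIIflox/flox cells Tk1 was lost without H2O2 replicate 2 (adjusted p = 0.0685), Prim1 without H2O2 replicate 3 (0.0684), Lig1 without H2O2 replicate 1 (0.131), Chaf1b without H2O2 replicate 1 or untreated replicate 1 (0.1004 and 0.0652), Fen1 without H2O2 replicate 2 or 3 or untreated replicate 2 or 3 (0.0542 to 0.257) and Uhrf1 without H2O2 replicate 1 or 2 or any untreated replicate (lowest adjusted p 0.0535). Chaf1b, Fen1, Lig1 and Uhrf1 were also lost with only the groups compared (0.0893, 0.0548, 0.0522 and 0.108), Chaf1b and Uhrf1 without the filter on low counts (0.0691 and 0.0965), Fen1 with DESeq2 and with summed transcripts (0.0559 and 0.0639), Uhrf1 with a replicate block (0.0599) and Prim1 with its highest protein-coding transcript (0.108). In TβRII-/- cells Rfc3 was lost without untreated replicate 1 (0.0946), Mcm2 without untreated replicate 2 (0.0552), Mcm4 without H2O2 replicate 2 or untreated replicate 1 (0.0651 and 0.0580), Cdc7 without H2O2 or untreated replicate 3 (0.121 and 0.0510), Prim1 without H2O2 replicate 3 (0.0960), with its highest protein-coding transcript (0.0733) or with summed transcripts (0.0740), and Ccne1 without H2O2 replicate 1 or untreated replicate 2 (0.0854 and 0.0551). Tyms was lost without any H2O2 replicate or untreated replicate 2 or 3 (0.0586 to 0.193) and E2f8 without any H2O2 replicate or untreated replicate 1 or 3 (0.0529 to 0.218) and with summed transcripts (0.0534).

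The genes that fell with genotype and rose with H2O2 shared a feature of their transcripts that was noticed after their values were seen. For 11 of the 48 genes the transcript with the highest total is annotated as retained intron or as a target of nonsense-mediated decay: Cdc6, Cdt1, Mcm3, Cdc7, Prim1, Rfc3, Rfc5, Tyms, Chaf1a, Cdk2 and Dtl. All 5 genes lower in TβRII-/- PT cells in both media were of this kind, and so were 3 of the 19 higher in both media, Rfc3, Rfc5 and Tyms. The same held for 7 of the 9 genes that rose with H2O2 in both genotypes and none of the 5 that fell in both. In TβRII-/- cells alone, 8 of the 11 were called higher with H2O2 and 2, Rfc5 and Tyms, lower. How many of all genes tested have such a transcript, and how those genes were called, was not counted. No background stands beside these counts, and they cannot be read as particular to the replication genes. Among the 11, the median log2 fold change with H2O2 was 0.21 in TβRIIflox/flox and 0.21 in TβRII-/- cells, and among the other 37 it was -0.06 and 0.01. With the highest protein-coding transcript in their place, the medians of the 11 were 0.21 and 0.21. Counts on transcripts that share exons cannot be assigned to either form, and Prim1 was the exception: its difference between untreated genotypes went from -0.27 to -0.14, its H2O2 effect from 0.19 to 0.13 in TβRIIflox/flox and from 0.20 to 0.14 in TβRII-/- cells, and none of its calls held with that transcript.

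**Figure D5:**
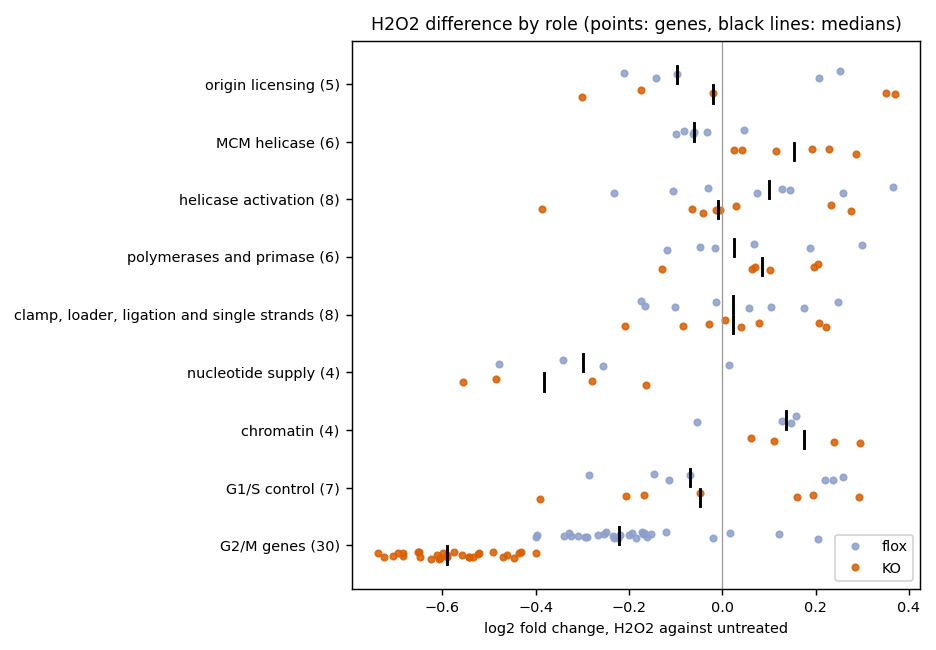
Log2 fold change with H2O2 (x axis) of each replication gene by role and of 30 G2/M genes (y axis; number of genes in brackets), in flox (blue) and KO cells (orange), with medians as black lines. Nucleotide supply has medians of -0.30 and -0.38 and the G2/M genes of -0.22 and -0.59, while the MCM helicase has -0.06 in flox and 0.15 in KO cells.

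The effect of H2O2 differed between genotypes for 4 members, Gins2, Mcm2, E2f1 and Mcm4, each with a higher H2O2 effect in TβRII-/- PT cells, and for none in the other direction, against 3.90% and 6.28% of all genes tested (edgeR). At an unadjusted p under 0.05, 6 members were called in the first direction and 3, E2f2, Pole and Rfc5, in the other, and DESeq2 gave 4 and 0 after adjustment. Gins2 had 867, 834 and 780 normalized counts in TβRIIflox/flox and 752, 836 and 751 in TβRII-/- cells with H2O2, against 812, 966 and 895 and 632, 686 and 617 untreated. The H2O2 effect was -0.11 in TβRIIflox/flox and 0.27 in TβRII-/- cells, a difference of 0.38 ± 0.10 (adjusted p = 0.0156). Mcm2 had 6483, 6415 and 6944 untreated and 6546, 6041 and 5923 treated in TβRIIflox/flox, and 6491, 5927 and 6715 untreated and 7519, 7848 and 7049 treated in TβRII-/- cells. Its treated TβRII-/- libraries lay above all others, and the difference was 0.33 ± 0.09 (adjusted p = 0.0172). E2f1, the factor that drives S-phase entry, had 949, 801 and 880 untreated and 779, 791 and 807 treated in TβRIIflox/flox and 881, 882 and 827 untreated and 1005, 943 and 945 treated in TβRII-/- cells (difference 0.31 ± 0.09, adjusted p = 0.0340). For Mcm4 the difference was 0.28 ± 0.09 (adjusted p = 0.0360).

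None of these 4 calls held in every alternative. Without replicate 2 of TβRII-/- with H2O2, or without replicate 3 of TβRIIflox/flox with H2O2, no member was called for the difference (adjusted p of the 4 from 0.0540 to 0.114 and from 0.0778 to 0.163). The MCM subunits all had a difference above 0, from 0.09 to 0.33, with a median of 0.19, and 2 of 6 passed the test. E2f2 had the largest difference in the other direction, -0.29 (95% interval -0.56 to -0.01, adjusted p = 0.206).

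Genes near the 48 in function were counted from lists of their own. Of 46 other replication genes, 16 were higher and 11 lower in untreated TβRII-/- PT cells (median log2 fold change 0.05). These shares, 34.8% and 23.9%, stand beside 33.3% and 31.4% of all genes tested. The largest rises were in the small polymerase subunit Pold4 (0.86), mitochondrial thymidine kinase Tk2 (0.79), the dUTPase Dut (0.78) and the histone acetyltransferase Hat1 (0.63). With H2O2, 8 rose and 10 fell in TβRIIflox/flox cells, against 21.0% and 20.5% of all genes tested. In TβRII-/- cells 7 rose and 11 fell, against 20.5% and 19.1%. Mcm9, a helicase of DNA repair, was up by 0.47 and 0.57 and Timeless, a fork protection factor, by 0.33 and 0.44. Asf1b had log2 fold changes of -0.25 and -0.48 and Asf1a of -0.33 and -0.23, of which only the last did not pass the test.

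Upstream, 11 of 23 tested E2F, retinoblastoma and G1 genes were higher and 5 lower in untreated TβRII-/- PT cells. These shares, 47.8% and 21.7%, stand beside 33.3% and 31.4% of all genes tested. Cyclin D1, Ccnd1, which starts the release of E2F, had 1585, 1547 and 1735 normalized counts in untreated TβRIIflox/flox and 9554, 9244 and 9584 in untreated TβRII-/- cells, and 517, 587 and 609 against 5164, 5043 and 4786 with H2O2. The log2 fold changes between genotypes were 2.54 and 3.13, larger than for any of the 48 replication genes. Cyclin D2, Ccnd2, fell by 1.12 in untreated TβRII-/- cells. With H2O2 in serum-free medium, Ccnd1 was lower by 1.51 in TβRIIflox/flox and 0.92 in TβRII-/- cells on the log2 scale. Of the 23 genes, 9 and 11 fell while 0 and 1 rose. Over all genes tested, 20.5% and 19.1% fell and 21.0% and 20.5% rose.

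All 7 inhibitors of cyclin-dependent kinases tested differed between untreated genotypes, 6 higher in TβRII-/- PT cells, among them Cdkn1c (1.09), Cdkn2b (0.56) and Cdkn2d (0.51), and Cdkn1b lower (-0.36). Over all genes tested, 33.3% were higher and 31.4% lower. With H2O2, 2 of the 7 inhibitors were called higher and 1 lower in TβRIIflox/flox cells, against 21.0% and 20.5% of all genes tested. In TβRII-/- cells 4 were higher and 2 lower, against 20.5% and 19.1%. The log2 fold changes in TβRIIflox/flox and TβRII-/- cells were 0.64 and 0.49 for Cdkn1c, 0.45 and 0.52 for Cdkn2b and -0.37 and -0.51 for Cdkn2d. Genes that rise late in the cycle were counted in the same way. Of 30 G2/M genes, 23 fell with H2O2 in TβRIIflox/flox (median log2 fold change -0.22), against 20.5% of all genes tested. In TβRII-/- PT cells 30 fell (median -0.59), against 19.1%. None rose in either line, against 21.0% and 20.5% (edgeR). At an unadjusted p under 0.05, 1 rose in TβRIIflox/flox cells, Cenpa, and 0 in TβRII-/- cells. For 28 of the 30 the H2O2 effect was called more negative in TβRII-/- cells, against 6.28% of all genes tested. Among them were Cenpa (difference -0.75), Mki67 (-0.52), Aurkb (-0.52) and Ccnf (-0.51). Between untreated genotypes 16 of the 30 were higher and 3 lower (median 0.15), against 33.3% and 31.4% of all genes tested. With H2O2 4 of the 30 were higher and 19 lower (median -0.21), against 35.1% and 31.3%. In that comparison 26 of the 48 replication genes were higher.

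Markers of other cell types moved with genotype beside these differences. The summed normalized counts of 8 listed fibroblast markers were 5586 to 6934 in untreated TβRIIflox/flox and 190 to 241 in untreated TβRII-/- libraries. Postn carried nearly all of it, with means of 6101 and 196.6. Col1a2, Col3a1, Dcn, Lum and Pdgfra had means under 10, and of the 4 tested markers 3 were lower and Dcn was higher (log2 fold change 1.87). Proximal tubule markers summed to 33284 to 40733 and 21780 to 22973, with 8 of 9 tested lower, and kidney epithelium genes to 25584 to 27881 and 44519 to 47603, with 6 of 8 higher. Of 5 endothelial markers only Kdr was tested, with means of 128.8 and 507.3, and Cdh5, Emcn, Pecam1 and Tek had means under 10. Of 6 distal nephron markers only Scnn1g was tested, with means of 13.7 and 28.8, and the other 5 had means under 10. Leukocyte markers summed to at most 15.06 in any library. The part of these shifts in the values of the replication genes was not tested.

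The 7 members Cdc45, Mcm10, Mcm5, Orc1, Pola2, Prim2 and Rpa2 were called in none of the 5 comparisons, and their log2 fold changes between untreated genotypes lay between -0.17 and 0.13. For 24 of the 48 members an exon on the opposite strand overlaps the transcript used, over the longest stretches at Chaf1a, Gins2, Fen1, Rfc2 and Rfc5, and also at called genes such as Mcm7, Gins1, Pcna and Slbp. How strand entered the counting is not given in the sources used here, and reads of such a pair may not be told apart.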

How the data were processed

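The 12 RNA-seq libraries of PT cells, 3 in each of 4 groups, were analysed. The authors deposited whole-number read counts per transcript. Per the labels and the methods of the study, stranded mRNA libraries were trimmed with fastp, aligned with STAR to GRCm38.p6 and counted with featureCounts, and the authors tested them with DESeq2. Summing all transcripts of each gene would give totals 3.20 to 3.32 times as large as those analysed.

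Of 106332 transcripts, 104820 matched GENCODE M39 by identifier, giving 25514 genes. The other 1512 were left out (1.22% to 1.28% of counts). The tests had been planned for counts per gene. The transcript with the highest total therefore stood for each gene. Normalized counts are TMM-scaled counts at the mean effective library size of 17351835. Genes were filtered with filterByExpr and tested with the quasi-likelihood test of edgeR 4.0.16 in R 4.3.3, in 1 fit of all 12 libraries, with Benjamini-Hochberg adjustment over 12971 genes. The fit was also run on simulated data, in which few genes changed and each by more than most members did. It was not tried there on changes as small or as widespread as those between these genotypes. Depth was even, with gene totals of 15870155 to 20857618.

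The members and lists were chosen with earlier results of these data known. All 48 members are named. Values per library are given for the member with the highest count and the largest genotype difference in each role, the 5 largest interactions, and the 3 largest rises and falls with H2O2 in each genotype. Other lists give up to 4 genes by size of change. The look at chromosomal neighbours and at transcript types was chosen after seeing the data, as was the fit with the highest protein-coding transcript. Alternatives were DESeq2 1.42.0, its size factors, other filters, summed transcripts, the compared groups alone, a replicate block and each library left out. Promoters came from RefSeq (GRCm38.p6).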

Additional observations from a re-analysis of the deposited data

Results flagged for a closer look

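The effect of H2O2 differed between TβRIIflox/flox and TβRII-/- PT cells for 4 replication genes, by a test of the difference itself (edgeR interaction term, Benjamini-Hochberg over 12971 genes). The differences, TβRII-/- minus TβRIIflox/flox on the log2 scale, were 0.38 for Gins2 (adjusted p = 0.0156), 0.33 for Mcm2 (adjusted p = 0.0172), 0.31 for E2f1 (adjusted p = 0.0340) and 0.28 for Mcm4 (adjusted p = 0.0360). None of the 4 kept its call without replicate 2 of TβRII-/- with H2O2, or without replicate 3 of TβRIIflox/flox with H2O2.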

How the results depend on the processing

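With an unadjusted p under 0.01 and a fold of at least 1.5, 6 members were higher and 0 lower in untreated TβRII-/- PT cells, 7 and 0 with H2O2, and 0 and 0 changed with H2O2 in either genotype, and 0 differed in their H2O2 effect. Summed transcripts gave a median genotype difference with H2O2 of 0.198 and 1 member with a higher H2O2 effect in TβRII-/- cells. Leaving out 1 library at a time gave 18 to 24 members higher, 7 to 8 lower and a median of 0.0856 to 0.157 between untreated genotypes, 23 to 26, 6 to 9 and 0.170 to 0.244 with H2O2, 9 to 11, 4 to 8 and -0.0380 to 0.00997 for H2O2 in TβRIIflox/flox cells, 13 to 15, 7 to 10 and 0.0300 to 0.0823 in TβRII-/- cells, and 0 to 4, 0 to 1 and -0.0372 to 0.0274 for the interaction. Values that changed sign were near 0. Dbf4 between untreated genotypes was 5.56e-05 with at least 10 counts in every library and -0.0508 to 0.0166 with 1 library left out. Pole with H2O2 was -0.00328 with DESeq2 size factors, -0.00326 with DESeq2, -0.0362 with summed transcripts, -0.000768 with only the compared groups and -0.0455 to 0.0296 with 1 library left out. The cause was not tested. Of 655 alternatives for named genes, 605 kept direction and side of the threshold, 40 lost the call, 1 gained it and 9 changed sign. Replicate numbers did not pair the libraries: over 18 same-number pairs the correlation of deviations ran from -0.101 to 0.0582, and 2 of 12 libraries correlated best with their own number. A replicate block gave 18 members higher and 7 lower between untreated genotypes, 26 and 7 with H2O2, 10 and 6 and 15 and 10 for H2O2 in TβRIIflox/flox and TβRII-/- cells, and 3 and 0 for the interaction.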
